A study of Rattus norvegicus with 4 samples.

Results

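INS-1 cells held in forskolin for 16 h were compared directly with INS-1 cells held in forskolin for 2 h, gene by gene, to describe which transcripts decayed, persisted or built up while the cAMP stimulus went on. The comparison rests on 2 of the 4 arrays of the series, and the difference between the vehicle arrays of the same times is set beside it. Of 18644 named genes on the arrays, the 9322 whose highest signal over the 4 arrays reached a filter of 4.854 log2 units were compared. INS-1 is an insulin-secreting line that comes from an insulinoma of inbred NEDH rats, and the cells grew in RPMI with 10% serum. The groups were forskolin at 10 µM in DMSO for 16 h, forskolin at 10 µM in DMSO for 2 h, the DMSO vehicle alone for 16 h, and the DMSO vehicle alone for 2 h. Total RNA of each group was measured on 1 Affymetrix rat gene array. No difference therefore has a replicate check or a p-value, and genes were counted by the size of the difference alone. How many cultures stand behind an array is not stated in the labels.

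Forskolin is a plant diterpene that activates most adenylyl cyclases and so raises cAMP without a hormone receptor. In beta cells cAMP acts through protein kinase A and the exchange factor Epac. Protein kinase A phosphorylates the transcription factor CREB, which binds cAMP response elements in promoters and switches on a first wave of genes, many of which encode repressors, phosphatases and other brakes that limit the response. Later changes can also come from the proteins made in that first wave, and incretin hormones such as GLP-1 use the same pathway to raise insulin secretion.

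The 4 arrays agreed closely, with Pearson correlations of 0.985 to 0.993 across probe sets. The upper quartile of 1153 negative control probe sets was 4.37 to 4.57 log2 units by array, and the filter would let 26.8% of such controls through, so a signal near or under that level is close to background. Of 8 measured beta-cell markers, 7 lay at or above that quartile on each forskolin array and 8 on each vehicle array. Of 8 macrophage and leukocyte markers, 0 did so on any array, and of 9 fibroblast and endothelial markers between 0 and 2 did. Gcg, the glucagon gene of alpha cells, read 12.56 with forskolin at 16 h and no less than 11.76 on any array, so the line carried a strong glucagon signal beside its insulin signal.

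Between 2 h and 16 h of forskolin, 198 genes gained at least 2-fold (2.12% of the 9322) and 257 lost at least 2-fold (2.76%). Over the same interval in vehicle, 8 genes gained (0.0858%) and 3 lost at least 2-fold (0.0322%). The SD of the log2 difference over genes was 0.48 with forskolin and 0.25 with vehicle, and the median was 0.05 with forskolin and -0.08 with vehicle. Of all compared genes, 55.6% lay above 0 with forskolin and 37.1% with vehicle. The forskolin and vehicle differences share no array, and across the 9322 genes they correlated with a Pearson coefficient of 0.24 and a Spearman coefficient of 0.26, as a description of genes that are not independent.

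Of the 198 genes higher at 16 h of forskolin, 107 also had a vehicle difference above 0, but in 0 of them did the vehicle difference itself reach 2-fold. After the vehicle difference was subtracted, 142 of the 198 still stood at least 2-fold higher. Among the 257 lower genes, 207 had a vehicle difference below 0, 0 reached 2-fold in vehicle, and 158 remained at least 2-fold lower after subtraction. In a bulk measurement of this kind, fewer cells that carry a transcript and less of it per cell cannot be told apart.

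**Figure D1:**
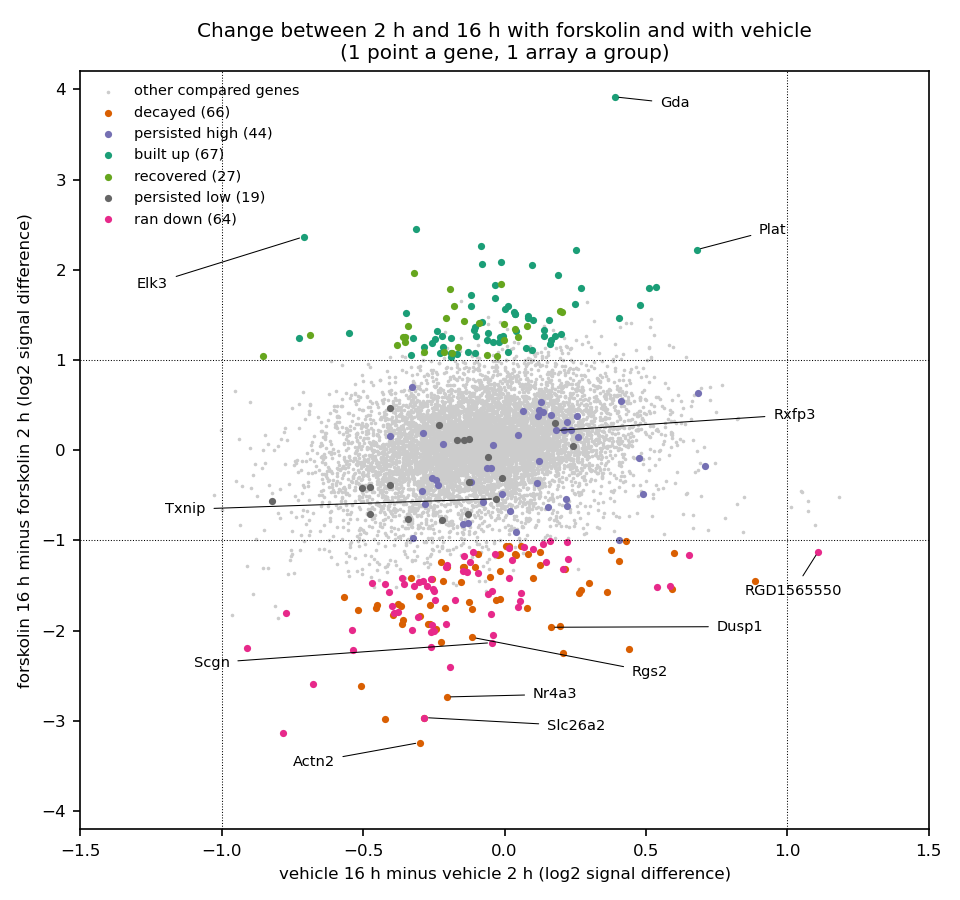
Log2 difference between 16 h and 2 h with forskolin (vertical axis) and with vehicle (horizontal axis, drawn on a wider scale) for the 9322 compared genes, 1 point a gene, with dotted lines at 2-fold and the response classes coloured with their gene counts. Forskolin differences run from -3.24 to 3.92, while vehicle differences run from -1.03 to 1.18. Slc26a2 belongs to both the decayed and the ran down class and is drawn in the colour of the second.

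To separate these patterns, each gene was also set against vehicle of the same time. A gene was called decayed if it stood at least 2-fold above vehicle at 2 h and then lost at least 2-fold between 2 h and 16 h of forskolin, with and without subtraction of the vehicle difference. Genes at least 2-fold above vehicle at both times whose forskolin signals stayed within 2-fold of each other were called persisted high. A gene was called built up if it was at least 2-fold above vehicle at 16 h and at least 2-fold higher at 16 h than at 2 h, again with and without subtraction. The classes recovered, persisted low and ran down are the mirror images below vehicle. The class rules reuse the same 4 arrays in several differences, so an error on the forskolin 2 h array alone pushes a gene towards decayed or recovered and an error on the forskolin 16 h array towards built up or ran down; how far this went was not tested.

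With forskolin at 16 h, 217 genes stood at least 2-fold above vehicle (2.33%), and at 2 h 195 did (2.09%). Of those 195, 66 decayed (0.708% of all compared genes), 44 persisted high (0.472%), 2 went on to build up, and 83 met no class rule. Of the 66 decayed genes, 10 were still at least 2-fold above vehicle at 16 h, 55 were within 2-fold of it and 1 was at least 2-fold below it. The median decayed gene stood 0.40 log2 units above vehicle at 16 h and 1.91 above it at 2 h. The class has no sharp border: Gem, a small GTPase gene, was the last inside it with a forskolin difference of -1.01, and Nfil3, a bZIP repressor gene, at -0.99, counted as persisted high.

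Nuclear receptors of the NR4A family, which act without a known ligand, decayed together but to different depths. Nr4a3 gave log2 signals of 5.0 with forskolin at 16 h and 7.73 at 2 h, against 3.70 with vehicle at 16 h and 3.91 at 2 h. The 2 h forskolin array stands far above the other arrays, and the 16 h forskolin signal still lies above both vehicle signals, which are under the negative control quartile. For Nr4a2 the signals were 6.65 with forskolin at 16 h and 8.4 at 2 h, against 4.85 with vehicle at 16 h and 5.30 at 2 h. Nr4a1 read 8.35 with forskolin at 16 h and 9.41 at 2 h, against 6.81 with vehicle at 16 h and 6.80 at 2 h. Between 2 h and 16 h of forskolin the family members were thus 6.66-fold, 3.37-fold and 2.08-fold lower in the order given, and all stayed at least 2-fold above vehicle at 16 h.

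The AP-1 genes Fos and Fosb, whose proteins pair with JUN proteins, lost most of their signal. Fosb read 4.21 with forskolin at 16 h and 6.45 at 2 h, against 3.68 with vehicle at 16 h and 3.48 at 2 h. Fos read 4.32 with forskolin at 16 h and 5.87 at 2 h, against 3.45 with vehicle at 16 h and 3.18 at 2 h. For both genes only the 2 h forskolin signal rose above the negative control quartile, so the fold of the decline is uncertain: with low signals raised to that quartile the log2 difference was -1.88 for Fosb and -1.3 for Fos. Myc, a growth-promoting transcription factor gene, followed another course, at 6.31 with forskolin at 16 h and 8.13 at 2 h, against 7.50 with vehicle at 16 h and 7.55 at 2 h. It ended 2.28-fold below vehicle and was counted among the genes that ran down.

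Feedback genes of the cAMP pathway were lower at 16 h than at 2 h but kept part of their induction. Rgs2, which shortens signalling by G proteins, read 7.20 with forskolin at 16 h and 9.28 at 2 h, against 5.06 with vehicle at 16 h and 5.17 at 2 h. Its 2 forskolin signals both lie above its 2 vehicle signals, by 4.42-fold at 16 h and 17.2-fold at 2 h. Sik1, a kinase that restrains the CREB coactivators (deposited as Snf1lk), read 8.11 with forskolin at 16 h and 9.88 at 2 h, against 6.07 with vehicle at 16 h and 6.59 at 2 h. Crem, whose locus encodes activators and the repressor ICER, read 8.12 with forskolin at 16 h and 9.41 at 2 h, against 7.05 with vehicle at 16 h and 7.19 at 2 h. Sik1 was 3.42-fold and Crem 2.45-fold lower at 16 h than at 2 h of forskolin, and at 16 h they stood 4.11-fold and 2.10-fold above vehicle. Akap12, a scaffold that anchors protein kinase A, was back at the vehicle level, reading 6.25 with forskolin at 16 h and 7.54 at 2 h, against 6.33 with vehicle at 16 h and 6.53 at 2 h.

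Other decayed genes returned to vehicle or below it. Dusp1, a phosphatase that switches off MAP kinases, read 7.29 with forskolin at 16 h and 9.25 at 2 h, against 7.49 with vehicle at 16 h and 7.33 at 2 h. Hbegf, an EGF-family growth factor gene, read 7.48 with forskolin at 16 h and 9.47 at 2 h, against 7.23 with vehicle at 16 h and 7.47 at 2 h. In both, the 2 h forskolin array alone is high and the other 3 signals lie close together. Mafa, an activator of the insulin gene, read 6.20 with forskolin at 16 h and 7.95 at 2 h, against 6.72 with vehicle at 16 h and 6.64 at 2 h, so its 16 h forskolin signal was the lowest of the 4. Cd83, which encodes an immune surface protein, was 4.59-fold lower at 16 h than at 2 h of forskolin and within 1.03-fold of vehicle at 16 h.

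Actn2, which encodes an actin cross-linker of muscle, had the largest decrease of all compared genes, reading 4.03 with forskolin at 16 h and 7.27 at 2 h, against 3.47 with vehicle at 16 h and 3.77 at 2 h. Its difference was -3.24, but with low signals raised to the negative control quartile it was -2.70 and no longer the largest. An entry described as similar to the Myb proto-oncogene protein then had -2.98. Slc26a2 had -2.96, the predicted gene RGD1565493 -2.81 and Nr4a3 -2.74. Sstr1, a somatostatin receptor that couples to the inhibitory G protein, was 6.11-fold lower at 16 h than at 2 h and 2.03-fold above vehicle at 16 h. The 16 h vehicle signal of Sstr1, 4.11, was under the negative control quartile, so the latter ratio is uncertain. The Myb-like entry was 7.89-fold lower at 16 h than at 2 h. Slc26a2, a sulphate transporter gene, is the only gene that met both the decayed and the ran down rule, and crossed the vehicle level: it read 7.31 with forskolin at 16 h and 10.27 at 2 h, against 8.60 with vehicle at 16 h and 8.89 at 2 h.

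**Figure D2:**
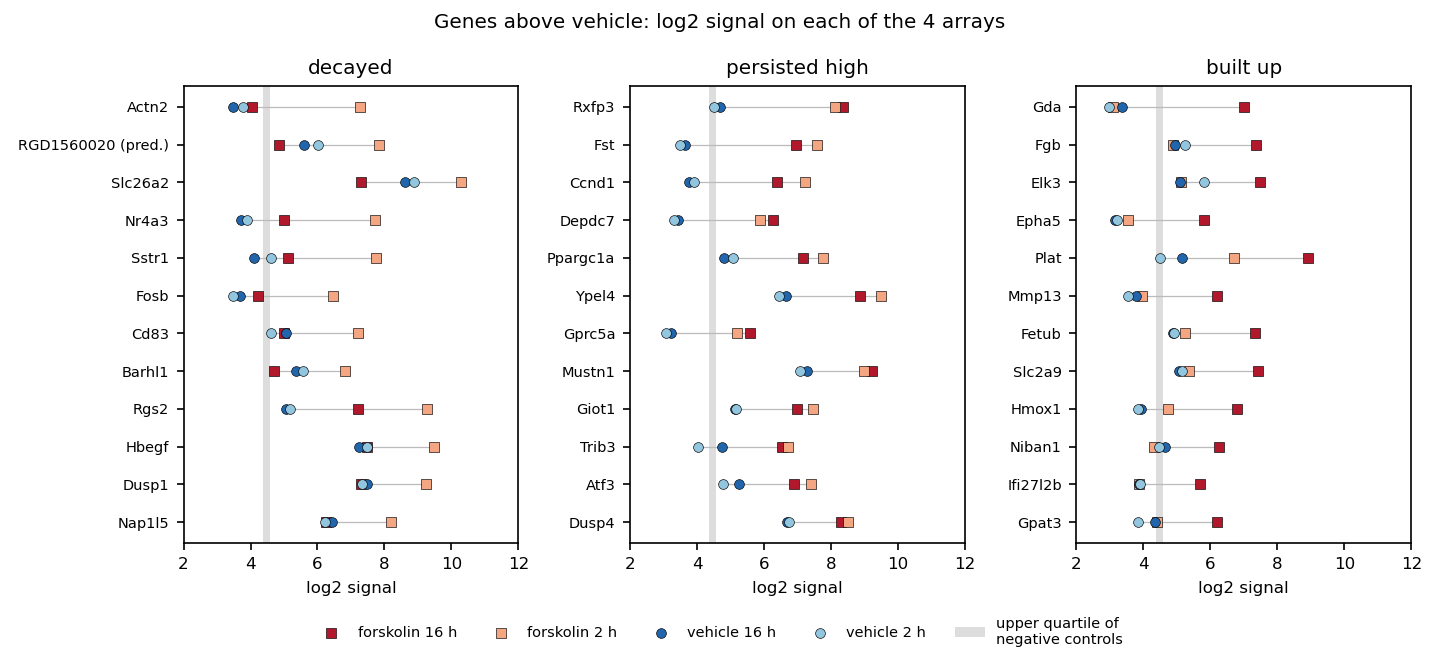
Log2 signal on each of the 4 arrays for the first 12 genes of the decayed, persisted high and built up classes, ordered by the size of the forskolin difference (persisted high by the smaller difference from vehicle). Squares are forskolin, circles vehicle, dark 16 h and light 2 h, and the grey band spans the upper quartiles of the negative controls (4.37 to 4.57). Light squares stand alone at the right among decayed genes, both squares stand right of the circles among persisted genes, and dark squares stand alone at the right among most built up genes.

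In the persisted high class the forskolin signals of 2 h and 16 h stood together. Rxfp3, the relaxin-3 receptor gene, read 8.35 with forskolin at 16 h and 8.13 at 2 h, against 4.70 with vehicle at 16 h and 4.52 at 2 h. It was 12.6-fold above vehicle at 16 h and 12.2-fold at 2 h, and its difference between the times was 0.22 with forskolin and 0.18 with vehicle. Fst, which encodes the activin antagonist follistatin, read 6.95 with forskolin at 16 h and 7.59 at 2 h, against 3.63 with vehicle at 16 h and 3.48 at 2 h. Ppargc1a, a coactivator of mitochondrial and gluconeogenic genes, read 7.16 with forskolin at 16 h and 7.75 at 2 h, against 4.79 with vehicle at 16 h and 5.08 at 2 h. For these genes both forskolin signals lie above both vehicle signals, and the vehicle signals of Fst are under the negative control quartile.

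Ccnd1, the cyclin D1 gene of the G1 phase, stayed 6.17-fold above vehicle at 16 h after 9.90-fold at 2 h, with both vehicle signals under the negative control quartile. Among regulators of stress and kinase signalling, Trib3 was 3.50-fold above vehicle at 16 h and 6.48-fold at 2 h, Atf3 3.13-fold and 6.14-fold, and the MAP kinase phosphatase gene Dusp4 3.07-fold and 3.41-fold. Trib3 and Atf3 also had positive vehicle differences of 0.71 and 0.49, so their lower ratio at 16 h comes in part from a higher vehicle signal. The 2 h vehicle signal of Trib3, 4.04, was under the negative control quartile, so its 2 h ratio and its vehicle difference are uncertain. Over the 44 genes the median log2 difference from vehicle was 1.54 at 16 h and 1.61 at 2 h.

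Promoters were searched for the sequence that CREB binds, among other motifs. The decayed and persisted high genes are 66 and 44 of the 195 genes at least 2-fold above vehicle at 2 h. A further 83 of the 195 met no class rule, and no share was computed for them. RefSeq promoter windows (assembly GRCr8) of 250 bases before to 50 bases after the gene start were matched by symbol to 51 of the 66 decayed, 32 of the 44 persisted high and 53 of the 67 built up genes. The full cAMP response element TGACGTCA, which reads the same on both strands, was found in 9 of 51 decayed (17.6%), 5 of 32 persisted high (15.6%) and 1 of 53 built up promoters (1.89%), beside 3.60% of the 7389 promoters of compared genes and 1.83% of all 33469 promoters. The shorter core TGACG, searched on both strands and contained in the full element, was found in 30 of 51 decayed (58.8%), 16 of 32 persisted high and 8 of 53 built up promoters (15.1%), beside 34.8% for compared genes. The same windows were searched for other motifs. The E-box CACGTG was in 25.5% of decayed and 3.12% of persisted high promoters, beside 10.4% for compared genes. The AP-1 site TGANTCA was in 3.92% of decayed, 15.6% of persisted high and 11.3% of built up promoters, beside 4.48%. In built up promoters, the hypoxia response core ACGTG (24.5%) and antioxidant response core TGACNNNGC (11.3%) lay below the 27.4% and 15.3% of compared genes. N stands for any base. Motifs were chosen after the gene classes were known, and a match is a run of letters, not a tested binding site. The core holds a CG pair, and the median number of CG pairs in a promoter was 24 in decayed, 12.5 in persisted high and 17 in built up genes, beside 22 for compared genes; the part of base composition in these shares was not tested.

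**Figure D3:**
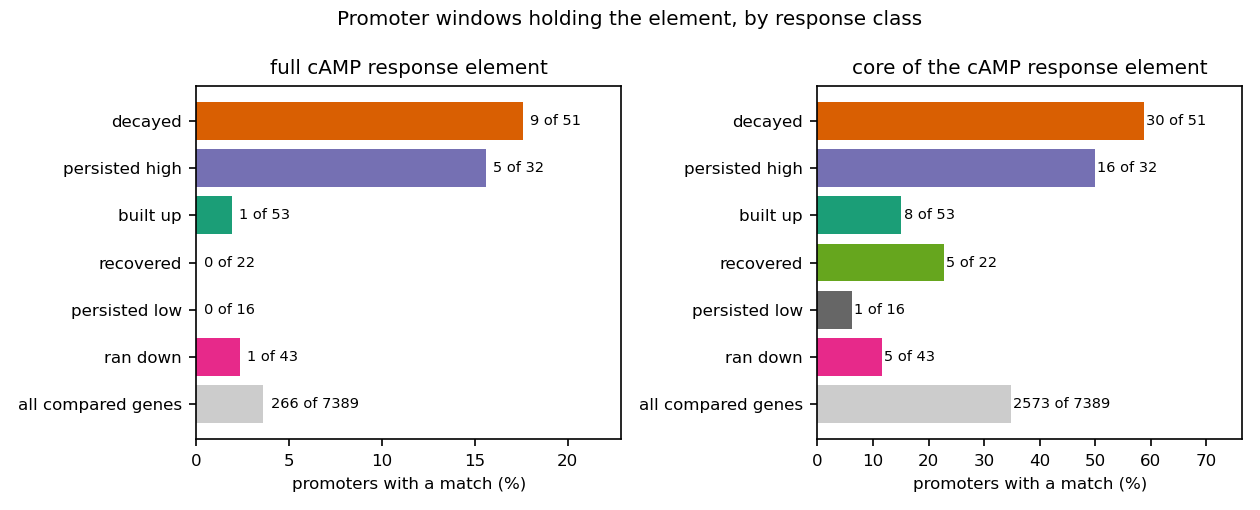
Percent of promoter windows with the full cAMP response element (left) or its core on either strand (right) in each response class and in all compared genes, with the counts beside the bars. The full element is in 17.6% of decayed and 15.6% of persisted high promoters, against 3.60% of the promoters of compared genes.

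5 promoters are shown because they hold the element, or in Nr4a1 only its core, in genes that took different courses: Dusp1 and Nr4a1 decayed, Ppargc1a persisted high, and Vgf and Scg2, which encode granule proteins of the secretogranin group, moved apart between 2 h and 16 h. Each reads 5′ to 3′ in the direction of its gene, and capitals mark the full element or its core on either strand. The windows are chr10:17184603-17184902 (plus strand), chr7:134259888-134260187 (plus strand), chr14:63634058-63634357 (plus strand), chr12:25276971-25277270 (minus strand) and chr9:88256817-88257116 (minus strand).
Dusp1: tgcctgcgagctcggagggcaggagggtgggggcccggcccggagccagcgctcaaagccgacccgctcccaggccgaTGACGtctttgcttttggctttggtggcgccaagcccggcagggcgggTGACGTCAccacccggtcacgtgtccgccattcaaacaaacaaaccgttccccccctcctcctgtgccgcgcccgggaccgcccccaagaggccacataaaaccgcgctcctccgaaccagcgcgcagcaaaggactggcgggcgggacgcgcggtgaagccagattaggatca
Nr4a1: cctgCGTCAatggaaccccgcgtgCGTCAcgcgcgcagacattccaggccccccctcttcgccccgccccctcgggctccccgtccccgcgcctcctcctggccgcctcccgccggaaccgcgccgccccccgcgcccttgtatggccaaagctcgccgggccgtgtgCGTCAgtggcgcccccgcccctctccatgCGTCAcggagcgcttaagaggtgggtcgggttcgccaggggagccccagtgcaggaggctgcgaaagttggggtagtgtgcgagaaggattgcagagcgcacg
Ppargc1a: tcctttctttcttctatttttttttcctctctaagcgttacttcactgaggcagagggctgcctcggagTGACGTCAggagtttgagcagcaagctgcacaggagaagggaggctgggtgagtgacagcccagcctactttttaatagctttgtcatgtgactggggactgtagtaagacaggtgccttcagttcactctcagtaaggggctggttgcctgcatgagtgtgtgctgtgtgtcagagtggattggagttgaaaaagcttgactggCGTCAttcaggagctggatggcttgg
Vgf: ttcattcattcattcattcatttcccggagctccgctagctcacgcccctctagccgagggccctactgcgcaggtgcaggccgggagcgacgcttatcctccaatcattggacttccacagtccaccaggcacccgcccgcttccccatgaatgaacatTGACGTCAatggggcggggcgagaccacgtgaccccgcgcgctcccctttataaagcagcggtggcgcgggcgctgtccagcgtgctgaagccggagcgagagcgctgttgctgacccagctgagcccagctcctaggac
Scg2: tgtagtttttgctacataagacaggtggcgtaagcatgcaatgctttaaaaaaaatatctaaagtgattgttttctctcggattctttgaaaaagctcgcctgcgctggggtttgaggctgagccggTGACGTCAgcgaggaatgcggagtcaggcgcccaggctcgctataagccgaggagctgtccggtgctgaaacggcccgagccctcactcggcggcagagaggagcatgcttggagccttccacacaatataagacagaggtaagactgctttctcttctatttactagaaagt

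The full element begins 124 bases before the gene start in Dusp1, 181 in Ppargc1a, 90 in Vgf and 123 in Scg2, while the Nr4a1 window holds 4 cores and 0 full elements. Vgf read 10.28 with forskolin at 16 h and 9.37 at 2 h, against 8.82 with vehicle at 16 h and 8.94 at 2 h. Scg2 read 9.63 with forskolin at 16 h and 10.64 at 2 h, against 10.43 with vehicle at 16 h and 10.95 at 2 h. With a full element in each promoter, Vgf was highest and Scg2 lowest on the 16 h forskolin array, and at 2 h both were within 2-fold of vehicle. Giot1, a zinc finger gene that persisted high at 3.60-fold above vehicle at 16 h, has its element at the far edge of the window, 248 bases before the start. Btg2, an antiproliferative gene that decayed 2.35-fold, has its element 201 bases before the start.

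The built up class held 67 genes (0.719% of those compared), 65 of which were within 2-fold of vehicle at 2 h. Its rule favours this, since a gene already 2-fold above vehicle at 2 h had to gain a further 2-fold relative to vehicle. Over all compared genes, 2.09% stood at least 2-fold above vehicle at 2 h and 1.41% at least 2-fold below it. Gda, which encodes guanine deaminase of purine breakdown, had the largest increase of all compared genes, reading 7.01 with forskolin at 16 h and 3.09 at 2 h, against 3.36 with vehicle at 16 h and 2.97 at 2 h. Its 16 h forskolin signal stands alone, and the other 3 are under the negative control quartile, so the log2 difference of 3.92 becomes 2.44 with low signals raised to that quartile, just under the 2.46 of Fgb. Across the class, 17 genes had a forskolin signal under that quartile and 18 had both vehicle signals under it. Just inside the limit lay Kcnh1, a potassium channel gene, at a difference of 1.04, and just outside it Pitpnc1, a phosphatidylinositol transfer protein gene, at 0.997.

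Several built up genes encode secreted or extracellular proteins. Plat, tissue plasminogen activator, read 8.93 with forskolin at 16 h and 6.71 at 2 h, against 5.16 with vehicle at 16 h and 4.49 at 2 h. Tgfb2, a growth factor gene of the TGF-beta family, read 9.40 with forskolin at 16 h and 7.96 at 2 h, against 5.81 with vehicle at 16 h and 5.65 at 2 h. These are the 2 built up genes that already stood at least 2-fold above vehicle at 2 h. Plat was 13.6-fold above vehicle at 16 h and 4.66-fold at 2 h, and Tgfb2 was 12.1-fold above vehicle at 16 h and 4.95-fold at 2 h. Mmp13, an interstitial collagenase gene, read 6.19 with forskolin at 16 h and 3.97 at 2 h, against 3.79 with vehicle at 16 h and 3.54 at 2 h. Only its 16 h forskolin signal rises above the negative control quartile.

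Fgb, the fibrinogen beta chain gene, read 7.35 with forskolin at 16 h and 4.89 at 2 h, against 4.94 with vehicle at 16 h and 5.25 at 2 h. Fetub, a secreted protease inhibitor gene, was 4.25-fold higher at 16 h than at 2 h of forskolin with a vehicle difference of -0.01. Cck, the cholecystokinin gene, read 10.03 with forskolin at 16 h and 8.80 at 2 h, against 8.0 with vehicle at 16 h and 7.83 at 2 h. In the gene ontology terms of the deposited annotation, extracellular space was given for 8 of 42 annotated built up genes (19.0%), 2 of 46 decayed genes (4.35%) and 1.8% of 6117 compared genes. Nucleus was given for 6 of 42 built up genes (14.3%), 21 of 46 decayed genes (45.7%) and 30.9% of compared genes. Transcription factor activity was given for 2 of 50 built up genes (4.0%), 10 of 54 decayed genes (18.5%) and 3.8% of compared genes. Other classes shared these traits in part. Extracellular space was given for 4 of 43 ran down genes (9.3%). Extracellular region was given for 14.3% of built up, 11.6% of ran down and 3.11% of compared genes. Nucleus was given for 47.1% of persisted high genes, and transcription factor activity for 3 of 17 recovered genes (17.6%). These terms were picked after the gene classes were known.

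Hmox1, the inducible haem oxygenase gene, read 6.79 with forskolin at 16 h and 4.74 at 2 h, against 3.94 with vehicle at 16 h and 3.84 at 2 h. Slc2a9, a urate transporter gene, read 7.43 with forskolin at 16 h and 5.37 at 2 h, against 5.07 with vehicle at 16 h and 5.16 at 2 h. Elk3, an ETS-family repressor gene, read 7.49 with forskolin at 16 h and 5.13 at 2 h, against 5.11 with vehicle at 16 h and 5.82 at 2 h. For Slc2a9 and Elk3 the 2 h forskolin signal lies with the vehicle signals and the 16 h forskolin signal far above them, and the Elk3 vehicle difference of -0.71 runs the other way. Epha5, a receptor for ephrins, was 4.81-fold higher at 16 h than at 2 h, or 2.34-fold with low signals raised to the negative control quartile, since its other 3 signals are under it. Pkib, an inhibitor of protein kinase A, read 7.06 with forskolin at 16 h and 5.73 at 2 h, against 5.84 with vehicle at 16 h and 5.95 at 2 h, and was the one member of the cAMP machinery list to build up.

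Genes below vehicle also divided by time. With forskolin at 16 h, 188 genes stood at least 2-fold below vehicle (2.02%), among them 64 that ran down (0.687%), and at 2 h 131 did (1.41%). Of those 131, 27 recovered (0.29% of all compared genes), 19 persisted low (0.204%) and 85 met no class rule. None of the 131 ran down further by that rule. Nr1d1, the REV-ERB alpha repressor of the circadian clock, read 6.33 with forskolin at 16 h and 4.48 at 2 h, against 5.72 with vehicle at 16 h and 5.73 at 2 h. F3, tissue factor of the coagulation cascade, read 6.61 with forskolin at 16 h and 5.2 at 2 h, against 7.24 with vehicle at 16 h and 7.33 at 2 h. Nr1d1 ended above vehicle and F3 slightly below it.

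Gata3, a developmental transcription factor gene, was the 1 recovered gene that remained at least 2-fold below vehicle, at 4.76 with forskolin at 16 h and 3.33 at 2 h, against 6.11 with vehicle at 16 h and 6.25 at 2 h. Because its 2 h forskolin signal is under the negative control quartile, the difference of 1.43 becomes 0.19 with low signals raised to that quartile. Sstr3, another somatostatin receptor gene, lay within 1.01-fold of vehicle at 16 h and 2.44-fold below it at 2 h. Of the 27 recovered genes, 26 were within 2-fold of vehicle at 16 h, 21 stood above it, and 11 had a forskolin signal under the negative control quartile.

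Txnip led the persisted low class. It encodes an arrestin-family protein that binds thioredoxin and is raised by glucose. Its signals were 5.90 with forskolin at 16 h and 6.44 at 2 h, against 10.01 with vehicle at 16 h and 10.05 at 2 h, a decrease of 17.3-fold at 16 h and 12.2-fold at 2 h. Its relative Arrdc4 read 5.49 with forskolin at 16 h and 6.26 at 2 h, against 7.95 with vehicle at 16 h and 8.17 at 2 h. Arrdc3, also of the arrestin-domain family, was in the built up class instead, at 9.53 with forskolin at 16 h and 7.92 at 2 h, against 8.08 with vehicle at 16 h and 7.60 at 2 h. Neurod1, a beta-cell transcription factor gene, was 3.0-fold below vehicle at 16 h and 2.23-fold at 2 h. The receptor genes P2ry1, for ADP, and Ffar3, for short-chain fatty acids, were 2.43-fold and 3.18-fold below vehicle at 16 h, after 2.89-fold and 2.72-fold at 2 h.

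Of the 64 ran down genes, 63 were within 2-fold of vehicle at 2 h. The class rule favours this, since a gene already 2-fold below vehicle at 2 h had to fall a further 2-fold relative to vehicle. Most compared genes were also within 2-fold of vehicle at 2 h, as 2.09% stood at least 2-fold above it and 1.41% below it. Scgn, which encodes the calcium sensor secretagogin, read 8.69 with forskolin at 16 h and 10.82 at 2 h, against 10.96 with vehicle at 16 h and 11.01 at 2 h. Arg1, arginase, read 6.34 with forskolin at 16 h and 8.39 at 2 h, against 8.46 with vehicle at 16 h and 8.50 at 2 h. Maob, monoamine oxidase B, read 7.10 with forskolin at 16 h and 9.09 at 2 h, against 8.80 with vehicle at 16 h and 9.12 at 2 h. In each of these the 16 h forskolin signal alone is low, by 4.39-fold, 4.12-fold and 3.98-fold against 2 h of forskolin in the order given.

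Rgs16, an RGS gene like Rgs2, read 5.35 with forskolin at 16 h and 7.75 at 2 h, against 7.19 with vehicle at 16 h and 7.38 at 2 h. It ended 3.57-fold below vehicle, while Rgs2 stayed 4.42-fold above it. Selenop, the plasma selenium carrier gene (deposited as Sepp1), read 3.48 with forskolin at 16 h and 6.07 at 2 h, against 5.63 with vehicle at 16 h and 6.31 at 2 h. The 16 h forskolin signal is under the negative control quartile, and with the floor the difference of -2.59 becomes -1.5. Vehicle signals fell in the same direction in 46 of the 64 genes, with vehicle differences down to -0.91. Most compared genes also fell in vehicle, where 37.1% of them lay above 0. Of the 64 genes, 19 had a forskolin signal under the negative control quartile.

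**Figure D4:**
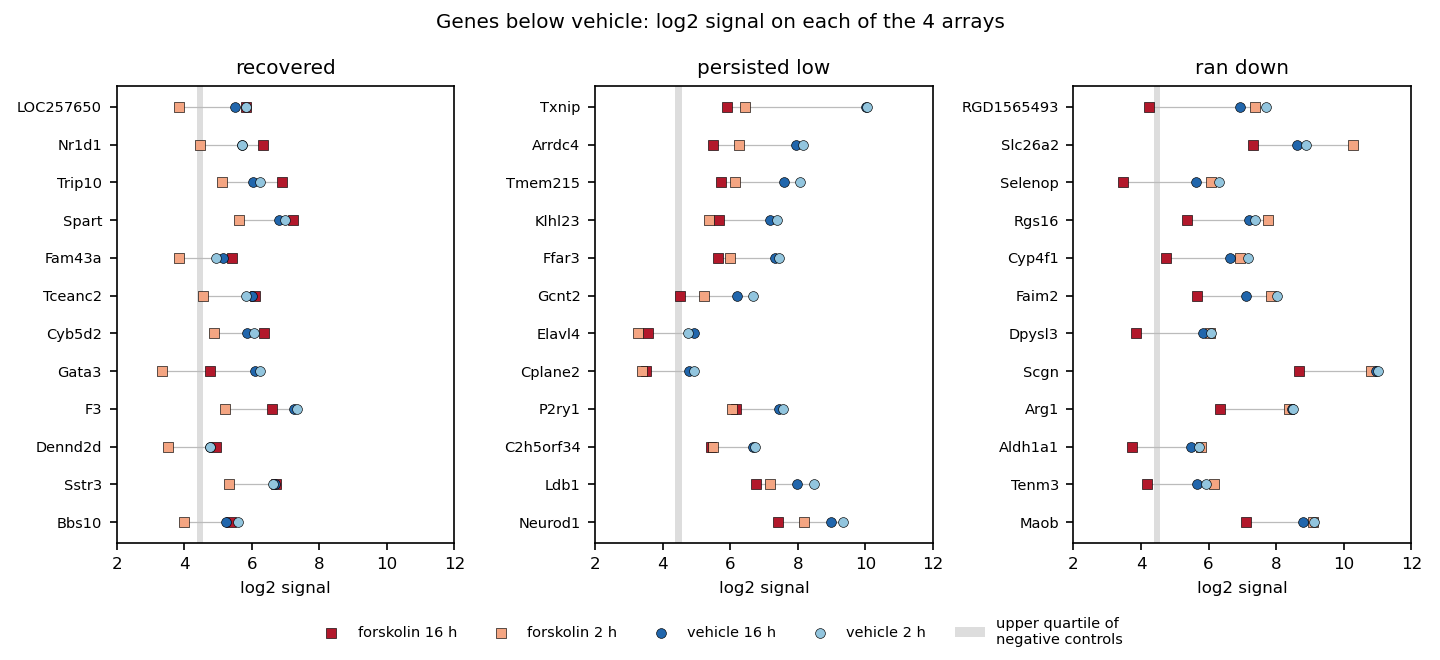
Log2 signal on each of the 4 arrays for the first 12 genes of the recovered, persisted low and ran down classes, drawn and ordered as for the raised classes, with the grey band at the upper quartiles of the negative controls. Light squares (forskolin at 2 h) stand alone at the left among recovered genes, both squares stand left among persisted low genes, and dark squares (forskolin at 16 h) stand alone at the left among ran down genes other than Slc26a2, whose 2 h signal is also high.

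Gene lists were described by their counts and medians. They were drawn from pathway knowledge but chosen with earlier results of these data known, so they are not independent of the data. Each list count is to be read against the shares over all compared genes. With forskolin 2.12% of these gained and 2.76% lost 2-fold or more, and 55.6% lay above 0. In vehicle 37.1% lay above 0. Each list median is to be read against the overall median of 0.05 with forskolin and -0.08 with vehicle. Of 35 measured CREB targets 25 passed the filter, and of these 0 gained (2.12% over all compared genes) and 15 lost (2.76%) at least 2-fold between 2 h and 16 h of forskolin, with a median difference of -1.06 with forskolin and -0.12 with vehicle. By class, 12 of them decayed, 3 persisted high (Fst, Ppargc1a and Nfil3) and 1 ran down (Rgs16). Among 22 of 28 immediate-early transcription factor genes that passed the filter, 0 gained and 10 lost at least 2-fold, with a median of -0.84 with forskolin and 0.01 with vehicle. A member that is low in vehicle passed the filter only through its induction, so these counts leave out members that forskolin did not raise, and without the filter the medians were -0.63 and -0.48.

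Of 27 members of the cAMP machinery list, from 41 measured, 23 stayed within 2-fold between 2 h and 16 h of forskolin. By at least 2-fold, 1 was higher (Pkib, 2.12% over all compared genes) and 3 were lower (Sik1, Crem and Akap12, 2.76%). The list median was -0.28 with forskolin, beside 0.05 over all compared genes, and -0.25 with vehicle, beside -0.08. Adcy6, an adenylyl cyclase, read 6.85 with forskolin at 16 h and 6.73 at 2 h, against 7.45 with vehicle at 16 h and 7.59 at 2 h. Adcy1 read 4.45 with forskolin at 16 h and 5.18 at 2 h, against 5.12 with vehicle at 16 h and 5.41 at 2 h. Both cyclases lay lower with forskolin than with vehicle at each time, by less than 2-fold. Pde10a, a phosphodiesterase that breaks down cyclic nucleotides, read 7.73 with forskolin at 16 h and 7.39 at 2 h, against 6.72 with vehicle at 16 h and 6.94 at 2 h. Pde4b, a cAMP phosphodiesterase, was under the negative control quartile on all 4 arrays.

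Feedback regulators of MAP kinases split. Of 15 members, 3 were at least 2-fold lower at 16 h than at 2 h of forskolin (Dusp1, Dusp10 and Dusp8) and 1 was higher (Spry1), with a median of -0.17 with forskolin and -0.17 with vehicle. Spry1, an inhibitor of receptor tyrosine kinase signalling, read 6.97 with forskolin at 16 h and 5.89 at 2 h, against 4.98 with vehicle at 16 h and 4.77 at 2 h. Its forskolin signals both lie above its vehicle signals, and the gap is wider at 16 h.

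Among the stress and metabolic lists, those of endoplasmic reticulum, HIF and NRF2 genes shifted upwards with forskolin. Of 27 endoplasmic reticulum chaperone and unfolded protein response genes, 24 lay above 0 (55.6% over all compared genes), 1 was at least 2-fold higher and 0 lower, with a median of 0.48 with forskolin and -0.04 with vehicle. Sdf2l1, a chaperone component, read 9.21 with forskolin at 16 h and 7.75 at 2 h, against 7.56 with vehicle at 16 h and 7.15 at 2 h. Of 29 HIF targets and glycolysis genes, 23 lay above 0, 4 were higher and 1 lower by 2-fold, with a median of 0.55 with forskolin and -0.06 with vehicle. Slc2a1, the GLUT1 glucose transporter gene, was 2.21-fold, Pfkp, a phosphofructokinase gene, 2.19-fold, and Egln3, an oxygen-sensing hydroxylase gene, 2.38-fold higher at 16 h than at 2 h of forskolin. Mxi1, a MYC antagonist, was the 1 lower member, at 2.28-fold by the probe set used. The others of its 5 probe sets did not reach 2-fold, with differences of -0.84, -0.80 and -0.24.

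Of 19 NRF2 targets, 15 lay above 0, and 4 were higher by 2-fold, Hmox1, Nqo1 and Slc7a11 among them, with 0 lower, and a median of 0.30 with forskolin and 0.07 with vehicle. Genes of the ATF4 and CHOP response ran the other way. With forskolin 16 of 22 lay below 0, while 55.6% of all compared genes lay above it. In vehicle 17 of 22 lay above 0 (37.1% over all compared genes). The medians of the list were -0.23 with forskolin and 0.18 with vehicle. In that list Slc1a4, a neutral amino acid transporter gene, was 2.2-fold lower, and Slc7a11, the cystine transporter gene, and Vldlr, a lipoprotein receptor gene, were 2.05-fold and 2.16-fold higher. Response to hypoxia, a term of the deposited annotation, was given for 6 of 45 annotated built up genes (13.3%), 0 of 50 decayed genes and 1.1% of 5804 compared genes.

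**Figure D5:**
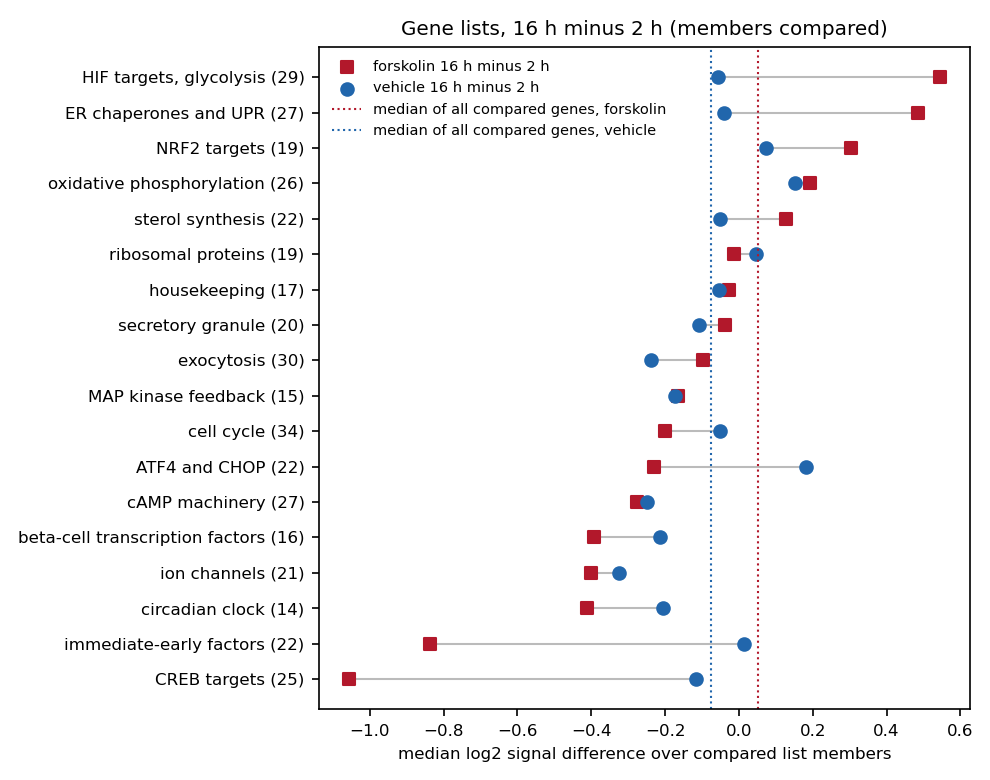
Median log2 difference between 16 h and 2 h over the compared members of 18 gene lists, with forskolin as squares and vehicle as circles, the number of members in brackets and dotted lines at the medians of all compared genes. CREB targets (-1.06) and immediate-early factors (-0.84) lie farthest to the left with forskolin, and HIF targets (0.55) and endoplasmic reticulum genes (0.48) farthest to the right, while all vehicle medians lie between -0.32 and 0.18.

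Genes of beta-cell identity and secretion held a mixed course. Ins1 read 13.24 with forskolin at 16 h and 13.25 at 2 h, against 13.32 with vehicle at 16 h and 13.23 at 2 h, and Ins2 differed by -0.06 with forskolin and 0.16 with vehicle. Iapp, the amylin gene, read 11.92 with forskolin at 16 h and 11.25 at 2 h, against 11.56 with vehicle at 16 h and 11.24 at 2 h. Of 16 beta-cell transcription factor genes, 1 was at least 2-fold higher (Gata3) and 1 lower (Mafa), with a median of -0.39 with forskolin and -0.21 with vehicle. Of 20 granule genes, 0 were higher and 1 lower (Scg2), with a median of -0.04 with forskolin and -0.11 with vehicle.

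In the exocytosis list, 2 of 30 genes gained and 3 lost at least 2-fold, with a median of -0.10 with forskolin and -0.24 with vehicle. Rab3b, a vesicle GTPase gene, read 5.10 with forskolin at 16 h and 6.82 at 2 h, against 6.55 with vehicle at 16 h and 6.94 at 2 h. Doc2b, a calcium sensor of vesicle fusion, read 4.91 with forskolin at 16 h and 3.48 at 2 h, against 3.62 with vehicle at 16 h and 3.70 at 2 h, so it rests on 1 signal above the negative control quartile. Among 21 ion channel genes, Cacna1a, a P/Q-type calcium channel gene, was 3.55-fold lower with forskolin and 1.95-fold lower with vehicle. The list median was -0.40 with forskolin and -0.32 with vehicle.

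Clock genes took opposite courses. Nr1d1 and Bmal1, a core activator of the clock (deposited as Arntl), were at least 2-fold higher at 16 h than at 2 h of forskolin, and the repressor genes Cry2 and Per1 were at least 2-fold lower, among 14 members with a median of -0.41 with forskolin and -0.20 with vehicle. Bmal1 read 6.33 with forskolin at 16 h and 5.13 at 2 h, against 5.46 with vehicle at 16 h and 5.52 at 2 h. Cry2 read 8.83 with forskolin at 16 h and 10.28 at 2 h, against 7.75 with vehicle at 16 h and 7.90 at 2 h. The vehicle signals of both genes hardly differed between the times.

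Cell cycle genes stayed within 2-fold in all 34 cases, from -0.86 to 0.78, with a median of -0.20 with forskolin and -0.05 with vehicle. Cdkn1a, which encodes the cell cycle inhibitor p21, read 8.05 with forskolin at 16 h and 7.05 at 2 h, against 6.29 with vehicle at 16 h and 6.25 at 2 h. Bcl2l11, the pro-apoptotic BIM gene, was 2.04-fold lower and Bid, another pro-apoptotic BCL2-family gene, 2.08-fold higher at 16 h than at 2 h of forskolin. Of 26 oxidative phosphorylation genes, 24 lay above 0 with forskolin (55.6% over all compared genes) and 18 with vehicle (37.1%). Their medians were 0.19 and 0.15, and 0 of them reached 2-fold. The 19 ribosomal protein genes ranged from -0.31 to 0.14 and the 17 housekeeping genes from -0.40 to 0.37, with forskolin medians of -0.01 and -0.03.

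In vehicle, the 5 genes highest at 16 h against 2 h were RGD1560825, RGD1565550, LOC501799, RGD1559699 and Fancd2osl1, predicted or little-studied loci with differences of 1.07 to 1.18, and all 5 had forskolin differences below 0, between -1.12 and -0.52. Both forskolin signals of RGD1559699 and Fancd2osl1, and the 16 h forskolin signal of RGD1560825, were under the negative control quartile. With low signals raised to that quartile, their forskolin differences were 0, 0 and -0.03 in that order. The 2 h vehicle signals of RGD1559699 and RGD1560825 were under it too. RGD1560825 and RGD1559699 are both described as similar to a serine/threonine kinase, so their probes may share targets. The 3 genes at least 2-fold lower in vehicle were Unc5a, a netrin receptor gene, Snap29, a SNARE protein gene, and Pde1b, a calcium-dependent phosphodiesterase gene, with vehicle differences of -1.03 to -1.0, and their forskolin differences were -0.50, 0.23 and -0.66. Of the 198 and 257 genes called with forskolin, 82 of the higher and 84 of the lower ones belonged to no class and stayed within 2-fold of vehicle at both times.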

How the data were processed

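Gene expression was measured in INS-1 cells on 1 Affymetrix rat gene array for each of 4 groups: forskolin at 16 h, forskolin at 2 h, vehicle at 16 h and vehicle at 2 h. The deposited values are log2 gene signals that the authors made by RMA (background correction, quantile normalization between arrays, probe summary), as the file headers say, in Affymetrix Expression Console, version 1.1.1 per the submitters' processing notes. Deposited tables agreed within 5e-05 log2 units. Quantile normalization gives all arrays the same distribution, so a change common to most genes would be removed. The deposited tables of ratios and sorted folds were not used.

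Of 29214 probe sets, 20411 had 1 gene symbol, 0 had several and 8803 had none, and these were left out. Current symbols came from RefSeq gene names (GRCr8), through the accession for 14564, the symbol for 2840 and a synonym for 1127 probe sets, while 1880 kept the deposited symbol. Each gene was read from its probe set of highest mean signal. Genes whose highest signal over the 4 arrays reached the median of that quantity were compared. A gene was counted if its log2 difference reached 1, a fold of 2. With 1 array a group there is no replicate check, no p-value and no interval, and the number of arrays limits the precision. The classing step was tested on simulated data with known answers. Simulated effects lay well past the class limits, so the test checked the rules and not the classing of genes near a limit.

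Members, classes and gene lists were chosen with earlier results of these data known. Named genes are the 15 highest and the 15 lowest in forskolin 16 h minus forskolin 2 h, the first 12 of each class, up to 4 members of each list with the largest difference, the 5 highest and 5 lowest in vehicle, class neighbours of a limit, and Crem, Nr4a1, Fos, Rgs2, Fst, Txnip, Ins1, Ins2, Iapp, Mafa, Hmox1, Plat, Gda, Rxfp3, Sik1, Pde4b, Pde10a and Adcy genes in any case. Some genes that this rule would name are not reported here. Promoter windows came from RefSeq (GRCr8). Alternatives were a 1.5-fold threshold, no filter, a filter on the upper 33.3% of genes by highest signal, cyclic loess, a further quantile normalization, a floor at 4.571 log2 units (the highest upper quartile of the negative controls), averaging the probe sets of a gene, and the series matrix values. Python 3.11.15, pandas 2.3.3, numpy 2.4.6, matplotlib 3.10.9, R 4.3.3 and limma 3.58.1 were used.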

Additional observations from a re-analysis of the deposited data

Results flagged for a closer look

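Slc26a2, the sulphate transporter gene, was marked because its difference from vehicle had opposite signs at the 2 times, each at least 2-fold: -1.29 log2 units at 16 h and 1.39 at 2 h. RGD1565550, described as similar to double homeobox 4, was marked because its change between 2 h and 16 h ran in opposite directions, -1.12 with forskolin and 1.11 with vehicle. It read 4.60 with forskolin at 16 h and 5.72 at 2 h, against 6.41 with vehicle at 16 h and 5.30 at 2 h. With 1 array a group, neither difference was tested. Among 1703 probe sets above the filter that carry no gene symbol and enter no comparison of the report, 55 were at least 2-fold lower and 23 at least 2-fold higher at 16 h than at 2 h of forskolin, beside 2 lower and 22 higher in vehicle.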

How the results depend on the processing

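With 1 array a group, no replicate could be left out, and the size of a single difference has no error. No paired analysis was possible because each group holds 1 array. A lower threshold of 1.5-fold raised all counts: 877 genes were higher and 780 lower at 16 h than at 2 h of forskolin, 71 higher and 219 lower in vehicle, 187 decayed, 108 persisted high, 298 built up, 229 recovered, 108 persisted low and 243 ran down. The share of higher genes among those called with forskolin was then 52.9%, beside 43.5% at 2-fold. Without the filter 14 genes were higher and 5 lower in vehicle. With the stricter filter 107 were higher with forskolin, 2 were higher in vehicle, 10 recovered and 42 ran down. Cyclic loess and the further quantile normalization each left 0 genes lower in vehicle. The floor left 4 genes higher in vehicle and the mean of probe sets left 5. Under the floor 65 of the 66 decayed, 59 of the 67 built up, 50 of the 64 ran down and 19 of the 27 recovered genes kept their class, and 23 of 188 named differences moved by more than 0.25 log2 units. Scaling alternatives (cyclic loess, further quantile normalization) kept 66 of the 66 decayed genes, 60 and 55 of the 67 built up genes, and 19 and 18 of the 27 recovered genes. List medians of forskolin differences moved by more than 0.25 in 3 lists without the filter and in 5 with the stricter filter. Adhesion and guidance genes had a median of -0.12, which was 0.03 without the filter, and beta-cell G protein-coupled receptor genes had 0.16, which was -0.21 with the stricter filter, so neither list has a settled direction. Signal over background limits low genes: 17 built up and 19 ran down genes had a forskolin signal under the negative control quartile.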
